A study of Mus musculus with 24 samples.

Results

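The mitochondrially encoded RNAs are the 37 genes of the mouse mitochondrial genome, of 39017 in the deposited count table. They were chosen by symbol, as every entry whose GENCODE M21 name starts with mt-, and comprise 13 mRNA genes, 2 rRNA genes and 22 tRNA genes. Of these, 18 passed a filter on low counts and entered the tests among 16248 genes: all 13 mRNAs, both rRNAs, and the tRNAs mt-Tc, mt-Tp and mt-Tn. The other 19 tRNAs had too few counts to be tested one by one.

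The mitochondrial genome is a small circle that is read along both strands into long precursor RNAs. The tRNAs lie between the rRNAs and most mRNAs, and cutting them out frees the single RNAs. The rRNAs form the core of the mitochondrial ribosome, the tRNAs bring amino acids to it, and the mRNAs encode membrane subunits of respiratory complexes I, III and IV and of the ATP synthase, complex V. All other subunits of these complexes, and the proteins that copy, process and translate mitochondrial RNA, are made from nuclear genes. Mitochondrial RNA makes up more of the RNA in muscle than in most tissues, which matters for skin samples that hold underlying muscle.

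RNA was sequenced from dorsal skin of female C3H/HeJ mice, labelled as about 30 weeks old when terminated, a strain in which grafted skin from an affected mouse brings on alopecia areata (AA), an immune attack on hair follicles. There were 24 libraries, 6 for each of 4 groups. The 8w off treatment libraries came from AA mice that had eaten Cmpd A, an oral JAK1 inhibitor, at about 100 mg/kg for 4 weeks and then none for 8 weeks, and were terminal samples of week 12. The systemic JAK1i libraries were biopsies taken while the mice were alive, at week 4 of the same treatment and 8 weeks before those mice were terminated, so at a younger age than the other 3 groups. AA mice with graft-induced hair loss and healthy mice are labelled untreated, and were sampled at week 12. By the study's methods the 8w off treatment and systemic JAK1i samples came from the same 6 mice, so they are not independent animals, but the labels do not say which libraries share a mouse. The AA sample names also hold the term Vec12w, so it is not known whether those mice received a vehicle. Every comparison with systemic JAK1i also holds a difference between week 4 and week 12, in the age of the mice, and between live and terminal sampling, which cannot be told apart from treatment. A graft-induced model in 1 inbred strain and 1 sex sets the range of animals described.

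By the library protocol the RNAs were made into libraries after removal of cytoplasmic and mitochondrial rRNA with RiboGold probes, so that an rRNA value would be what was left after that removal. The study's methods state that this protocol was preferred to an mRNA kit because the mouse RNA was of low integrity. A description label of every sample speaks of PolyA RNA instead, and why it does is not explained. The methods are followed here, so what the rRNA and tRNA shares are shares of rests on them. Small structural RNAs made outside mitochondria, most of which carry no poly(A) tail, held 1.49% to 3.80% of counts. How much rRNA was removed from each library is not known, and group and removal cannot be told apart. The RNA was not fragmented because it was partly degraded. Counts per library totalled 3444193 to 11233020, with a median of 5517360. All 8 keratinocyte markers and all 7 fibroblast markers were detected in every group, as skin should show. In bulk tissue, fewer cells of a type and less RNA per cell cannot be told apart.

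The 3 tRNAs that could be tested are shown because they carry most tRNA counts and the difference of systemic JAK1i from AA described below. Sequences are the GENCODE M21 transcripts on GRCm38, 5′ to 3′ as DNA, with the anticodon in capitals. All 3 genes lie on the minus strand, mt-Tc (tRNA for cysteine) at chrM:5192-5257, mt-Tn (asparagine) at chrM:5089-5159 and mt-Tp (proline) at chrM:15356-15422.
mt-Tc: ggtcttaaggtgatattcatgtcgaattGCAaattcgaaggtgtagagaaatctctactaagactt
mt-Tn: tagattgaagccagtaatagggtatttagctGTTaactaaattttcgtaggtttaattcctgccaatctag
mt-Tp: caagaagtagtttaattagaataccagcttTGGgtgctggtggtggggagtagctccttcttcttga

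A second pair of sequences is shown because it shows how close a nuclear copy of a mitochondrial mRNA can be. Part of the mitochondrial genome has a near-identical copy on nuclear chromosome 1, and reads from mt-Nd3, a complex I subunit, and from its copy Gm28438 can hardly be told apart. The lines give the first 33 bases of mt-Nd3 (chrM:9459-9491, plus strand) and the matching bases of Gm28438 (chr1:24613087-24613119, minus strand), with the only base that differs over 345 aligned bases in capitals. It is T3C, counted from the first base of mt-Nd3.
mt-Nd3: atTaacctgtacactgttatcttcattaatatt
Gm28438: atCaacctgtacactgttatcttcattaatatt

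By mean share of counts, mitochondrial RNA was highest in skin sampled 8 weeks after treatment. All 37 genes together held 4.03% to 7.57% of counts in the 8w off treatment libraries (mean 5.77%), 3.21% to 4.62% in systemic JAK1i (mean 4.13%), 2.51% to 3.89% in AA (mean 3.09%) and 2.38% to 5.95% in healthy skin (mean 3.87%). The 8w off treatment libraries all lay above the AA libraries and overlapped the systemic JAK1i and healthy ones. The classes did not move together: the mean rRNA share was highest in 8w off treatment, the mean tRNA share was highest in systemic JAK1i, and the mRNA shares of the 4 groups overlapped. The mRNA shares and the totals include 6 genes whose counts nearly vanished in 5 libraries, described below.

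Ribosomal RNA made up most mitochondrial counts. Its share was 3.28%, 4.04% and 5.58% (lowest, median and highest library) in 8w off treatment, 2.37%, 2.63% and 3.07% in systemic JAK1i, 1.81%, 1.92% and 2.51% in AA, and 1.34%, 2.55% and 4.20% in healthy skin. Means were 4.25% ± 0.940 in 8w off treatment, 2.70% ± 0.262 in systemic JAK1i, 2.03% ± 0.272 in AA and 2.50% ± 0.988 in healthy skin (SD, n = 6 each). Every 8w off treatment library lay above every systemic JAK1i and AA library, a mean difference of 1.55 points (1.57-fold) from systemic JAK1i and of 2.22 points (2.09-fold) from AA. The difference of 1.76 points from healthy skin came with overlapping libraries. The 95% Wilson intervals, which cover counting error only, reached at most 0.0234 points to either side, far less than the spread between mice.

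**Figure D1:**
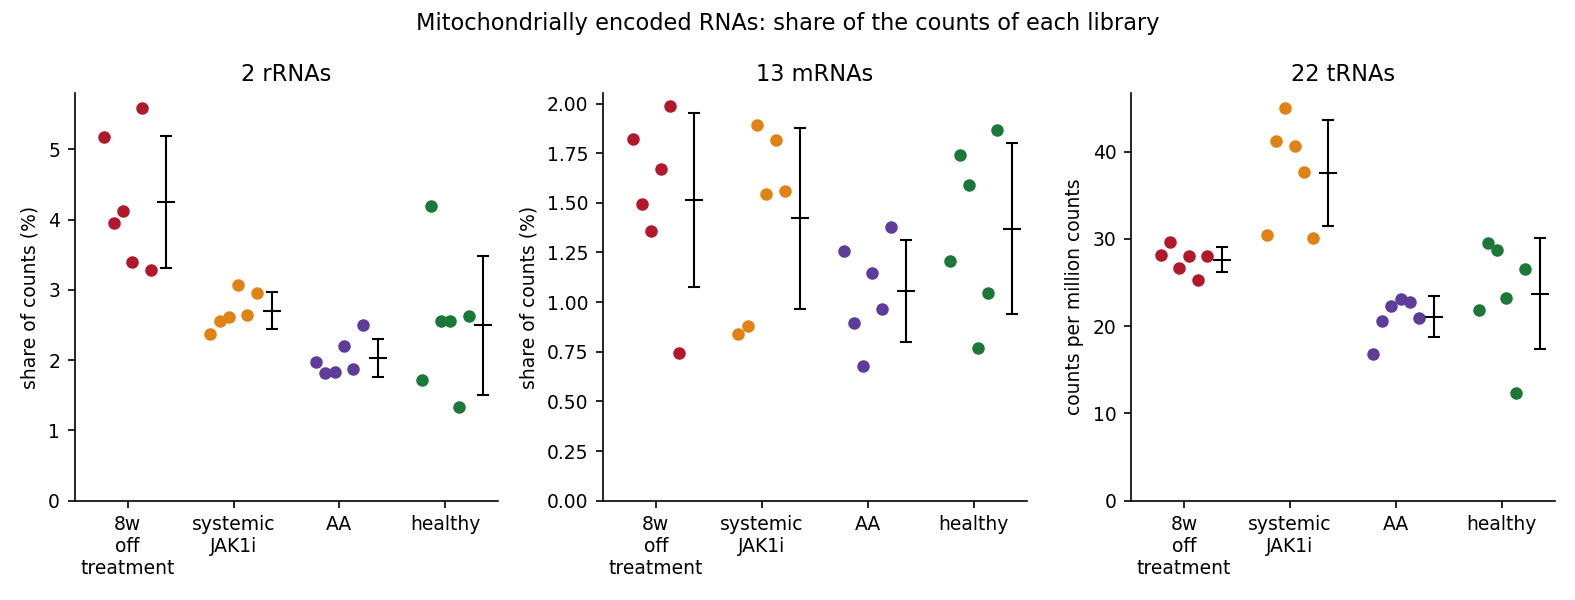
Share of counts taken by mitochondrial rRNA (percent), mRNA (percent) and tRNA (counts per 1000000) in each of the 24 libraries, by group, with points for libraries and bars for the mean ± SD of 6. The rRNA shares of 8w off treatment (3.28% to 5.58%) sit above all systemic JAK1i and AA libraries, the tRNA shares of systemic JAK1i (30.1 to 45.0 counts per 1000000) sit above all other libraries, and the mRNA shares overlap.

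mt-Rnr2 (ENSMUSG00000064339, chrM:1094-2675, plus strand), the 16S rRNA of the large ribosomal subunit, gave the larger part. Its level in CPM, counts per 1000000 scaled by TMM, was 29664, 36479 and 56971 (lowest, median and highest) in 8w off treatment, 21573.5, 24715 and 28548.5 in systemic JAK1i, 15656, 17026 and 23212 in AA, and 10794, 22189.8 and 40969 in healthy skin. The lowest 8w off treatment library lay above the highest systemic JAK1i and AA libraries. Healthy skin ran from under every library of the other groups to above all systemic JAK1i and AA libraries, but not to the top of 8w off treatment. mt-Rnr1 (ENSMUSG00000064337, chrM:70-1024, plus strand), the 12S rRNA of the small subunit, had 3108, 4510.1 and 7981 CPM in 8w off treatment, 1796, 1979 and 2494 in systemic JAK1i, 1647, 1743 and 3115 in AA, and 1287, 2098 and 4443 in healthy skin. For this gene the 8w off treatment libraries lay above those of systemic JAK1i, while the lowest of them was just under the highest AA library.

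The rRNAs were the only members called between 8w off treatment and AA skin with all libraries in the fit. By edgeR's quasi-likelihood test, with p-values adjusted over all 16248 genes and called below 0.05, 2 of the 18 tested members were higher in 8w off treatment than in AA and 0 were lower, where 1.37% of all genes were called (0.726% higher, 0.64% lower). They were mt-Rnr1 (log2 fold change 1.28, SE 0.27, adjusted p = 0.0212) and mt-Rnr2 (1.16, SE 0.23, adjusted p = 0.0177). The calls rested on single libraries: without AA library B neither passed (adjusted p = 0.0656 for mt-Rnr1 and 0.0516 for mt-Rnr2), and mt-Rnr1 also failed without AA library E, 8w off treatment library A or 8w off treatment library E (adjusted p = 0.0667, 0.0607 and 0.0586). The libraries of the 2 groups did not overlap in CPM for 1 of the 18, mt-Rnr2, against 1.28% of all genes.

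Against systemic JAK1i, both rRNAs were again higher in 8w off treatment. edgeR called 2 of 18 higher and 1 lower, where 35.9% of all genes were called (19.4% higher, 16.6% lower). mt-Rnr1 was higher by 1.27 on the log2 scale (SE 0.27, adjusted p = 0.00104), mt-Rnr2 by 0.68 (SE 0.23, adjusted p = 0.0272), and the lower gene was mt-Tc. The mt-Rnr2 call was lost without 8w off treatment library A, 8w off treatment library E or systemic JAK1i library A (adjusted p = 0.0598, 0.0644 and 0.0553). Both rRNAs, 2 of 18 members, had libraries that did not overlap, against 18% of all genes.

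Against healthy skin, 4 of 18 members were higher in 8w off treatment and 0 lower, where 32.7% of all genes were called (16.9% higher, 15.7% lower). The rRNAs were 2 of them, mt-Rnr1 with a log2 fold change of 1.18 (SE 0.27, adjusted p = 0.00227) and mt-Rnr2 with 0.84 (SE 0.23, adjusted p = 0.00856). The other 2 were complex I mRNAs described below. In the remaining comparisons the rRNA differences did not pass: mt-Rnr1 was at 0.01 on the log2 scale in systemic JAK1i against AA (SE 0.27) and mt-Rnr2 at 0.48 (SE 0.23, adjusted p = 0.097), and they were at -0.09 and 0.16 in systemic JAK1i against healthy skin and at -0.10 and -0.31 in AA against healthy skin.

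The rRNA counts of the 8w off treatment libraries were also high relative to the mRNA counts of the same libraries. The 5 mRNAs mt-Nd1, mt-Nd2, mt-Nd5, mt-Nd6 and mt-Cytb, which lie outside the stretch copied on chromosome 1, served as the measure of mRNA. They are not all free of nuclear copies: 510 bases of mt-Nd2 matched Gm13339 on chromosome 2 at 96.7% and 954 bases of mt-Nd5 matched Gm4076 on chromosome 13 at 95.2%, and both copies are in the count table. The rRNA to 5-gene ratio was 14.6 to 20.3 in 8w off treatment, 9.41 to 12.2 in systemic JAK1i, 7.25 to 11.3 in AA and 9.12 to 14 in healthy skin, so no library of another group reached the lowest 8w off treatment value. The balance of the rRNAs themselves differed in another group: the mt-Rnr2 to mt-Rnr1 count ratio was 11.0 to 13.3 in systemic JAK1i, above all libraries of 8w off treatment (7.14 to 9.83) and AA (7.45 to 9.92), and it overlapped healthy skin (8.30 to 12.0). Both ratios are free of any scaling between libraries, and neither was tested.

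Muscle RNA and the rRNA share were highest in the same pair of 8w off treatment libraries, and their order differed among some other libraries. The 15 skeletal muscle genes, none at 0 in any group, summed to 0.841% to 3.51% of counts in 8w off treatment, 1.76% to 2.22% in systemic JAK1i, 0.690% to 1.91% in AA and 0.0354% to 2.33% in healthy skin. 8w off treatment libraries A and E had both the most muscle RNA (3.44% and 3.51%) and the highest rRNA shares (5.18% and 5.58%), and healthy libraries A and E had the least muscle RNA (0.0431% and 0.0354%) and the lowest healthy rRNA shares (1.71% and 1.34%). The lowest muscle share of the 8w off treatment libraries, 0.841% in library B, came with an rRNA share of 3.95%, under the group's median. Library D had the third most muscle RNA of its group (2.47%) and an rRNA share of 3.40%, under the group's median. Healthy library F had the most muscle RNA of its group (2.33%) and an rRNA share of 2.63%, while the highest healthy rRNA share, 4.20% in library B, came with 1.70% muscle RNA. Without 8w off treatment libraries A and E, no member was called against AA (mt-Rnr1 0.87 on the log2 scale, adjusted p = 0.14, and mt-Rnr2 0.88, adjusted p = 0.0966), and mt-Rnr1 alone of the rRNAs was called against systemic JAK1i (0.87, adjusted p = 0.0139) and healthy skin (0.77, adjusted p = 0.0314). Without healthy libraries A and E, mt-Rnr1 was still called against healthy skin (0.91, adjusted p = 0.0219) and mt-Rnr2 was not (0.56, adjusted p = 0.0576). The single libraries named do not measure the relation over all libraries, and the part of muscle in the rRNA difference was not tested.

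**Figure D2:**
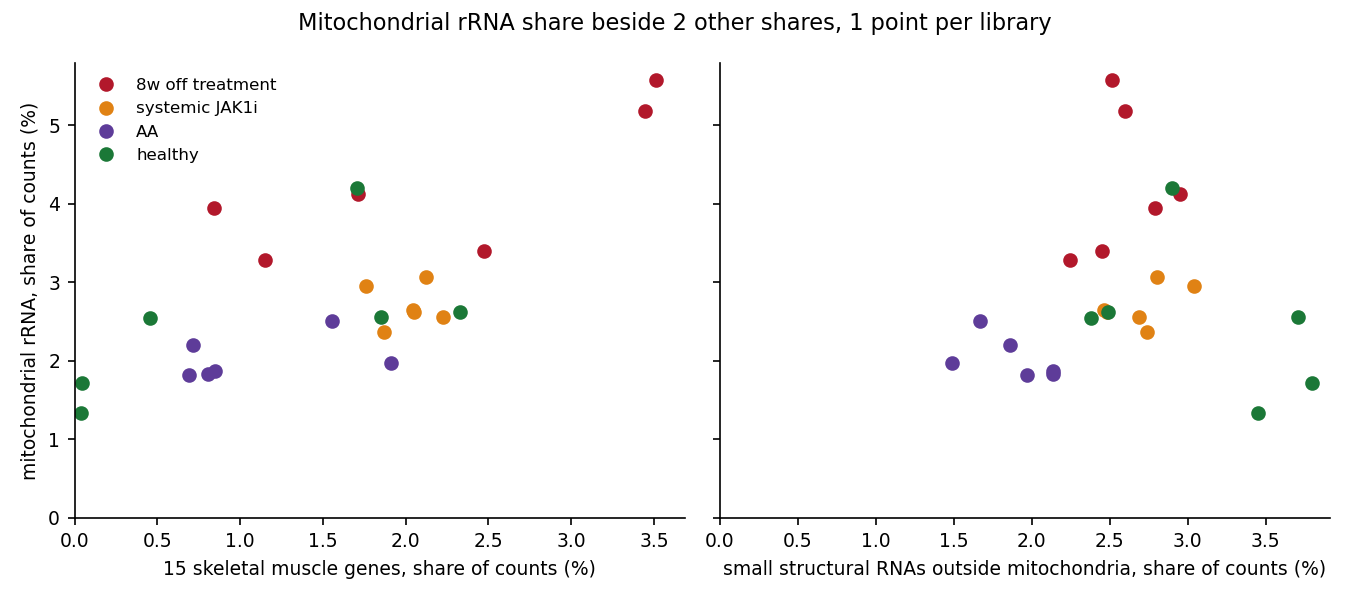
Mitochondrial rRNA share of counts (percent) in each library against the share of 15 skeletal muscle genes (percent) and against the share of small structural RNAs made outside mitochondria (percent), with 1 point per library coloured by group. All 8w off treatment points lie above all AA points in rRNA share. The small structural RNA shares of 8w off treatment (2.25% to 2.95%) lie above those of AA (1.49% to 2.14%) and overlap the others.

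A second measure moved with the groups. Small structural RNAs made outside mitochondria, such as small nuclear and nucleolar RNAs, held 2.25% to 2.95% of counts in 8w off treatment, 2.47% to 3.04% in systemic JAK1i, 1.49% to 2.14% in AA and 2.38% to 3.80% in healthy skin. The 8w off treatment libraries lay above the AA libraries here too, as in the rRNA share, but not above systemic JAK1i or healthy skin. Its part in the rRNA difference was not tested.

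Markers of other cell types also moved in 2 of the 3 comparisons in which the rRNAs were called. In 8w off treatment against systemic JAK1i, where 19.4% of all genes were higher and 16.6% lower, all 10 hair matrix and shaft genes and 7 of 9 T cell genes were higher, and all 8 white adipocyte genes, all 7 fibroblast genes and 5 of 7 sebocyte genes were lower, with 1 of 15 muscle genes lower. Set against healthy skin, where 16.9% were higher and 15.7% lower, all 10 hair genes and 5 of 9 T cell genes were higher in 8w off treatment, and all 8 white adipocyte, 6 of 7 fibroblast and 4 of 7 sebocyte genes were lower, with 0 of 15 muscle genes called (0 at an unadjusted p below 0.05). Between 8w off treatment and AA, where 1.37% of all genes were called, edgeR called 0 genes of any of these lists. At an unadjusted p below 0.05 there were 5 of 7 fibroblast genes and 1 of 15 muscle genes, and 0 of the hair, T cell, white adipocyte and sebocyte genes. The share of all genes at that unadjusted threshold is not given here, so these counts have no background. Though few were called, the 15 muscle genes had a median log2 fold change of 1.04 in 8w off treatment against healthy skin. It was 1.13 against AA and 0.005 against systemic JAK1i, with 0.009, -0.007 and -0.001 for all genes in the same order. Hair genes summed to 0.00163% to 0.323% of counts in 8w off treatment, 0.000854% to 0.0104% in systemic JAK1i, 0.0951% to 0.433% in AA and 0.000487% to 0.0153% in healthy skin. The part of these shifts in the rRNA differences was not tested.

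The 13 mRNAs together held less of the counts than the rRNAs, and no pair of groups was separated. Their share was 0.744%, 1.58% and 1.99% (lowest, median and highest) in 8w off treatment, 0.841%, 1.55% and 1.89% in systemic JAK1i, 0.679%, 1.06% and 1.38% in AA, and 0.767%, 1.4% and 1.86% in healthy skin. Means were 1.51% ± 0.438 in 8w off treatment, 1.42% ± 0.456 in systemic JAK1i, 1.05% ± 0.256 in AA and 1.37% ± 0.430 in healthy skin (SD, n = 6 each). Much of this spread came from a single stretch of the genome.

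In 5 libraries the counts of 6 neighbouring mRNA genes nearly vanished. These are, in genome order, mt-Co2, mt-Atp8, mt-Atp6, mt-Co3, mt-Nd3 and mt-Nd4l, which span chrM:7013-10173 and encode subunits of complex IV (mt-Co2, mt-Co3), complex V (mt-Atp8, mt-Atp6) and complex I (mt-Nd3, mt-Nd4l). Their summed counts were 65 in 8w off treatment library F, 141 in systemic JAK1i library B, 60 in AA library C and 68 in healthy library D, with 3243 in systemic JAK1i library A. The other 19 libraries had 8444 to 56908. As a ratio to the 5 genes outside the copied stretch, the run had 0.00519 to 0.195 in the 5 libraries and 0.903 to 2.99 in the other 19. Each group held at least 1 such library, so low libraries were found in all 4 groups.

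**Figure D3:**
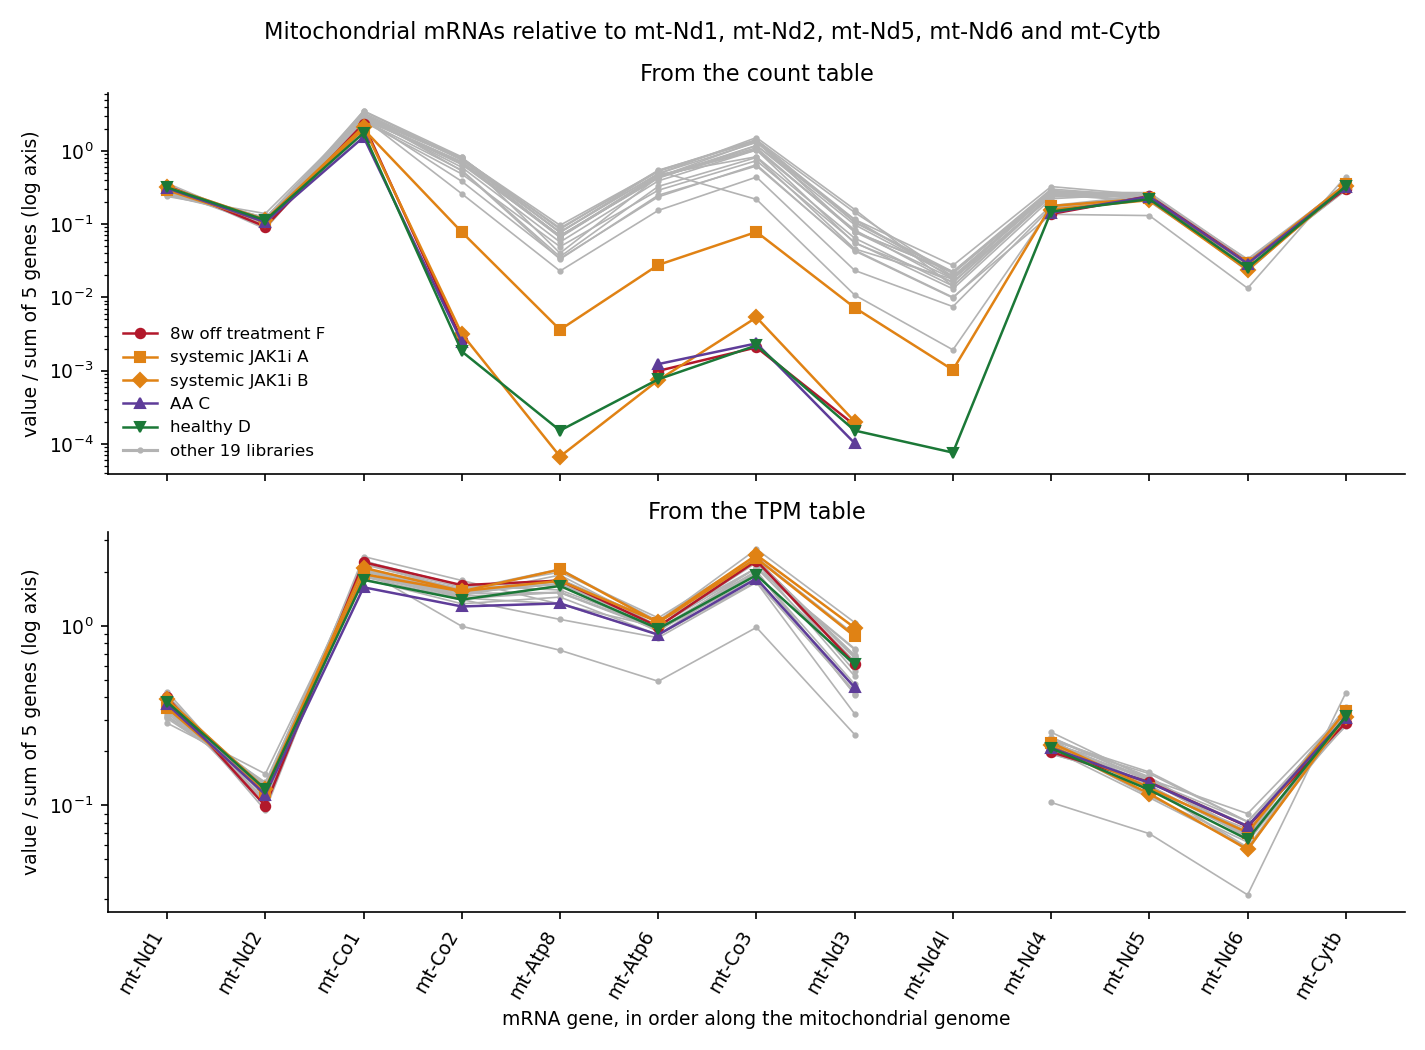
Each of the 13 mitochondrial mRNAs in genome order, as its value divided by the sum of mt-Nd1, mt-Nd2, mt-Nd5, mt-Nd6 and mt-Cytb in the same library, on a log axis, from the counts and from the TPM, with the 5 low libraries coloured and the other 19 in grey. In the counts the 5 libraries fall away from mt-Co2 to mt-Nd4l and return at mt-Nd4, and in the TPM they lie among the others. Values of 0 are not drawn.

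The lost stretch had near-identical sequence on chromosome 1. For mt-Co2, mt-Atp6, mt-Co3, mt-Nd3 and mt-Nd4l a transcript on chromosome 1 matched at 99.7% to 100% over 294 to 783 bases (Gm28661, Gm10925, Gm28437, Gm28438 and Gm10222), and for mt-Atp8, the shortest of the 6, which overlaps mt-Atp6 by 43 bases, none was found. mt-Co2 also matched Gm13341 on chromosome 2, at 95.9%. The neighbours at either end were copied in part, the last 483 bases of mt-Co1 and the first 876 of mt-Nd4. Relative to the 5 genes, mt-Co1 had 1.54 to 2.34 in the 5 libraries and 2.49 to 3.51 in the other 19, and mt-Nd4 had 0.137 to 0.177 in the 5 libraries and 0.136 to 0.325 in the others. Of the chromosome 1 copies only Gm10222 is in the count table, with 2 to 34 counts in all libraries but 2, which were among the 5: healthy library D had 122 and 8w off treatment library F had 68.

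The authors' other table did not show the loss. In TPM, transcripts per 1000000, the same ratio was 5.80 to 7.92 in the 5 libraries and 3.45 to 8.45 in the other 19. mt-Nd4l was listed at 0 TPM in every library while its copy Gm10222, identical over 294 bases, had 88.6 to 293 TPM. Levels of the 6 genes in the counts are therefore uncertain, and why the 2 tables differ was not tested.

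Within the run, mt-Atp8 (chrM:7766-7969), which encodes a small ATP synthase subunit, had 0, 177 and 272 CPM (lowest, median and highest) in 8w off treatment, 0.184, 177 and 265 in systemic JAK1i, 0, 67.7 and 132 in AA, and 0.396, 111 and 199 in healthy skin. With libraries at or near 0 in every group, the standard errors of the 6 genes' log2 fold changes were 0.84 to 1.12, and none was called in any comparison. For mt-Co3, a core subunit of complex IV, the log2 fold change was 1.04 in 8w off treatment against AA (SE 1.12) and 0.52 in systemic JAK1i against AA (SE 1.12). A second fit left out the 5 libraries, an alternative chosen after the data were seen. There mt-Co2 was higher in systemic JAK1i than in AA by 0.94 on the log2 scale (adjusted p = 0.0111), mt-Atp8 by 1.30 (adjusted p = 0.00583), mt-Atp6 by 1.02 (adjusted p = 0.0121) and mt-Nd3 by 1.44 (adjusted p = 0.0311). As the libraries were left out for the level of these very genes, the values are a description.

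Outside the run, levels could be compared between genes only per length. mt-Co1 (chrM:5328-6872), the catalytic core of complex IV, whose whole length also matches Gm13340 on chromosome 2 at 97.6%, had the highest median CPM per kilobase of the 13 mRNAs in each group, 4463 in 8w off treatment, 4790 in systemic JAK1i, 3366 in AA and 3543 in healthy skin. mt-Nd6 (chrM:13552-14070), a complex I subunit and the only mRNA of the minus strand, had medians of 154, 137, 103 and 105 CPM per kilobase in the same order of groups. By the same measure mt-Rnr2 had 23059 in 8w off treatment, 15622 in systemic JAK1i, 10762 in AA and 14026 in healthy skin.

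mt-Co1 had 4994, 6895 and 9522 CPM (lowest, median and highest) in 8w off treatment, 4890.4, 7400.5 and 8081 in systemic JAK1i, 3669, 5200.3 and 6621 in AA, and 4426, 5473 and 10322 in healthy skin, and it was called in no comparison. Its end lies in the copied stretch, and its counts relative to the 5 genes were lower in the 5 low libraries (1.54 to 2.34) than in the other 19 (2.49 to 3.51). Its levels in those 5 are therefore uncertain too. mt-Cytb (chrM:14145-15288), the cytochrome b of complex III, had 648, 833 and 1094 CPM in 8w off treatment, 768, 885 and 950.2 in systemic JAK1i, 517, 622 and 762 in AA, and 448, 828 and 1449 in healthy skin. For mt-Cytb all systemic JAK1i libraries lay above all AA libraries. mt-Nd6 had 63.5, 79.8 and 106 CPM in 8w off treatment, 60.3, 71.0 and 77.9 in systemic JAK1i, 47.2, 53.7 and 69.0 in AA, and 31.0, 54.4 and 74.9 in healthy skin, with overlap between all groups.

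The mRNA calls were few and all toward higher levels. In systemic JAK1i against AA, edgeR called 5 of 18 members higher and 0 lower, where 47.7% of all genes were called (22.9% higher, 24.8% lower). Of these, 2 were mRNAs, mt-Cytb (0.49 on the log2 scale, SE 0.20, adjusted p = 0.0418) and mt-Nd2, a complex I subunit (0.51, SE 0.21, adjusted p = 0.0499), and 3 were tRNAs. mt-Co1 had a log2 fold change of 0.39 (adjusted p = 0.127). Both mRNA calls were lost, with adjusted p of at least 0.0506, when any of systemic JAK1i libraries A, B, C, D and F or AA libraries A, B, D and E was left out. The libraries did not overlap for 2 of the 18, mt-Cytb and mt-Tc, against 26.9% of all genes.

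In 8w off treatment against healthy skin the called mRNAs were mt-Nd5 (0.55, SE 0.14, adjusted p = 0.00409) and mt-Nd6 (0.63, SE 0.18, adjusted p = 0.00971), complex I subunits on opposite strands that overlap by 14 bases. mt-Co1 had a log2 fold change of 0.18 (adjusted p = 0.53) and mt-Co3 of 0.37 (adjusted p = 0.83). Without 8w off treatment libraries A and E, or without healthy libraries A and E, mt-Nd5 was still called (0.42, adjusted p = 0.0341, and 0.35, adjusted p = 0.0357) and mt-Nd6 was not (adjusted p = 0.0741 and 0.0765). In 8w off treatment against AA no mRNA was called, and the smallest adjusted p were those of mt-Nd4 (0.78, SE 0.24, adjusted p = 0.0932) and mt-Nd5 (0.43, SE 0.14, adjusted p = 0.0985). mt-Nd4 passed without 8w off treatment library F, one of the 5 low libraries (adjusted p = 0.0268). In 8w off treatment against systemic JAK1i no mRNA passed either, with 0.21 for mt-Nd5 (adjusted p = 0.24) and 0.35 for mt-Nd4 (adjusted p = 0.29).

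No member was called between AA and healthy skin with all libraries in the fit. edgeR called 0 of 18 members in AA against healthy skin, where 40.2% of all genes were called (20.9% higher, 19.3% lower), and DESeq2 and limma-voom also called 0. At an unadjusted p below 0.05 there was 1, mt-Cytb, at -0.42 on the log2 scale (SE 0.20, adjusted p = 0.0932). mt-Co1 was at -0.27 (adjusted p = 0.32) and mt-Co3 at -0.67 (SE 1.12, adjusted p = 0.67). No member had libraries that did not overlap, against 14.3% of all genes. The result depended on healthy libraries A and E, which had little muscle RNA: without both, mt-Cytb (-0.69, adjusted p = 0.0018), mt-Nd2 (-0.53, adjusted p = 0.0196), mt-Nd1 (-0.42, adjusted p = 0.0338) and mt-Rnr2 (-0.60, adjusted p = 0.0276) were lower in AA, and mt-Cytb also passed without library A alone (adjusted p = 0.0333) or E alone (adjusted p = 0.0185).

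**Figure D4:**
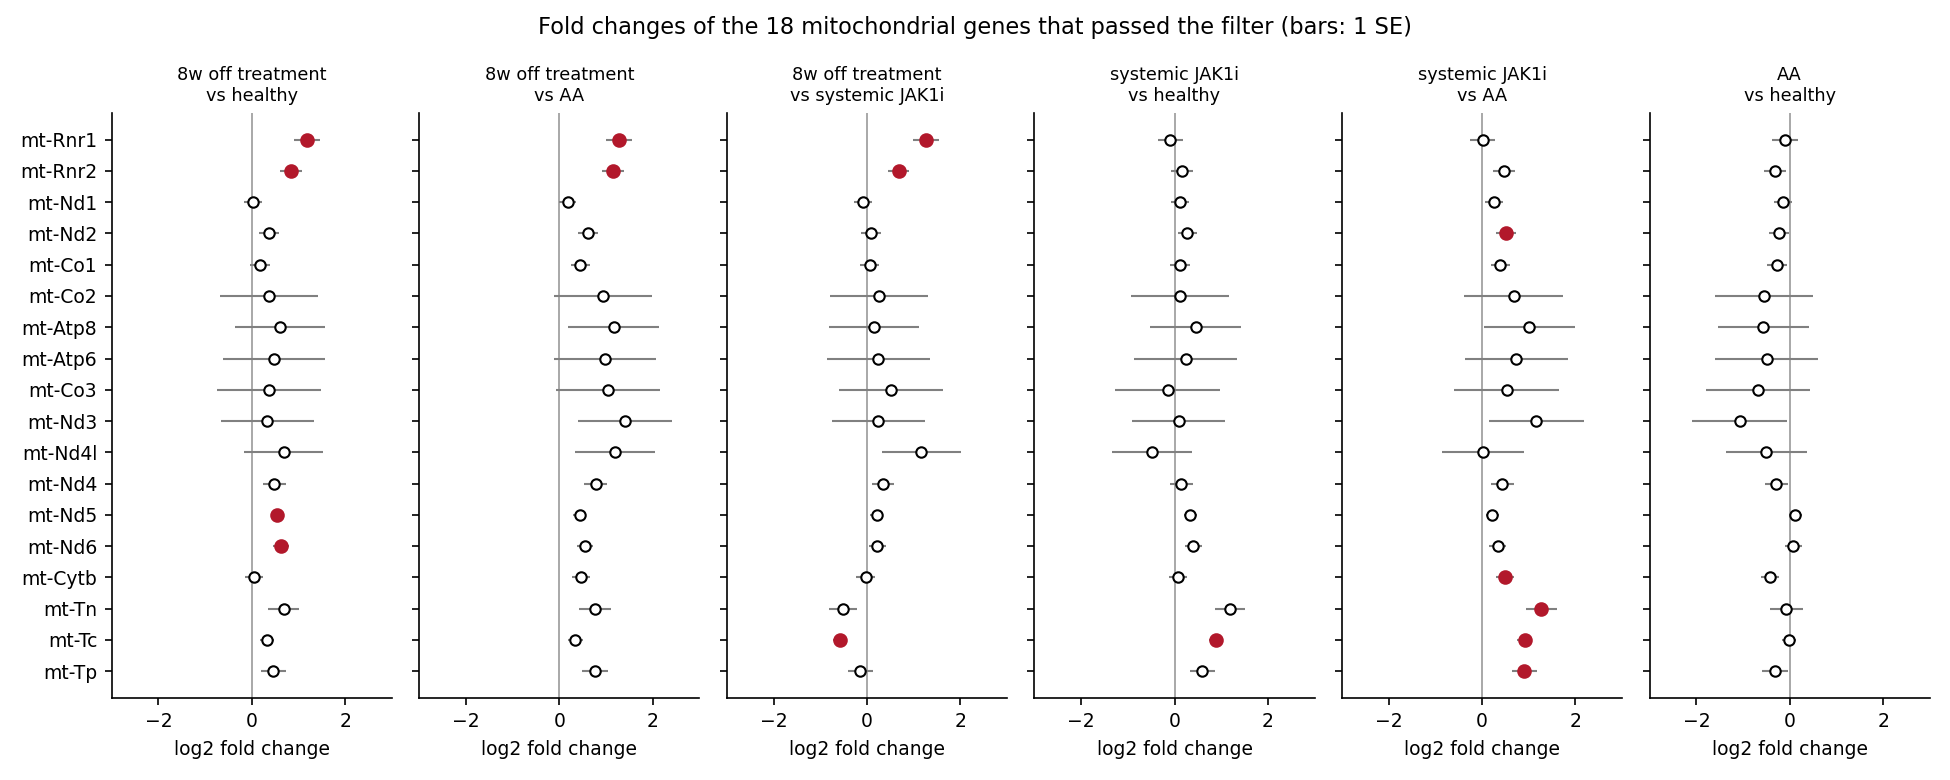
Log2 fold change of each of the 18 tested mitochondrial genes in the 6 comparisons, with bars of 1 SE and filled red points where edgeR's adjusted p was below 0.05. The genes from mt-Co2 to mt-Nd4l carry bars of 0.84 to 1.12, the rRNAs are filled in the 3 comparisons of 8w off treatment, and the tRNAs are filled in systemic JAK1i against AA.

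The tRNAs held few counts, but were the class that set the systemic JAK1i libraries apart. Their share was 25.3, 28 and 29.6 counts per 1000000 (lowest, median and highest) in 8w off treatment, 30.1, 39.2 and 45.0 in systemic JAK1i, 16.8, 21.6 and 23.2 in AA, and 12.3, 24.9 and 29.6 in healthy skin. Every systemic JAK1i library lay above every library of the other groups, with a mean of 37.5 ± 6.06 counts per 1000000 against 21.1 ± 2.34 in AA (1.78-fold) and 23.7 ± 6.34 in healthy skin (1.58-fold; SD, n = 6 each). The 8w off treatment mean of 27.6 ± 1.47 was 1.31-fold that of AA, also without overlap. The 95% Wilson intervals of counting reached up to 5.63 counts per 1000000 to either side, so neighbouring libraries of different groups could not be ordered at this depth.

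Most tRNA counts came from genes of the minus strand. The 22 genes had 3938 counts over all 24 libraries. Of these mt-Tc had 1162, mt-Tp 977 and mt-Tn 500, together 67.0%, and the other 19 genes had 1299. The 8 genes of the minus strand held 79.1% of tRNA counts, with a median of 131 counts a gene, and the 14 of the plus strand held 20.9%, with a median of 38. At the lower end mt-Tf, for phenylalanine, had 1 count, and mt-Tg, for glycine, had 0, which allows up to 3 counts over the 24 libraries.

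Split by strand, the separation of systemic JAK1i from all other groups was no longer complete. The minus-strand genes summed to 20.5 to 24.8 counts per 1000000 in 8w off treatment, 21.8 to 37.4 in systemic JAK1i, 11.7 to 19 in AA and 10.4 to 22.3 in healthy skin, so that both groups that had received the inhibitor lay above AA, while systemic JAK1i overlapped 8w off treatment and healthy skin. The plus-strand genes summed to 4.63 to 7.55 counts per 1000000 in 8w off treatment, 4.40 to 8.37 in systemic JAK1i, 3.71 to 6.29 in AA and 1.92 to 7.51 in healthy skin, all overlapping. The mean of systemic JAK1i was 1.92-fold that of AA on the minus strand and 1.35-fold on the plus strand, and the strands were not compared by a test. mt-Tc, mt-Tp and mt-Tn lie opposite plus-strand precursor RNA. Whether the counting used strand is not given in the sources used here, and reads of these tRNAs cannot be told apart from reads of the precursor across the same bases.

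mt-Tc had 6.84, 7.98 and 9.31 CPM (lowest, median and highest) in 8w off treatment, 9.13, 11.8 and 15.1 in systemic JAK1i, 5.16, 6.08 and 7.59 in AA, and 3.72, 7.07 and 7.20 in healthy skin. All 6 systemic JAK1i libraries lay above all AA and healthy libraries, and only the lowest of them overlapped 8w off treatment. mt-Tp had 6.70, 7.93 and 10.2 CPM in 8w off treatment, 4.47, 8.46 and 12.5 in systemic JAK1i, 2.91, 4.45 and 8.47 in AA, and 3.23, 5.80 and 8.96 in healthy skin, with overlap throughout. mt-Tn had 3.32, 3.60 and 5.51 CPM in 8w off treatment, 4.13, 5.12 and 7.46 in systemic JAK1i, 0.489, 2.45 and 4.21 in AA, and 1.24, 2.30 and 3.26 in healthy skin, and the libraries of both groups that had received the inhibitor lay above all healthy ones.

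**Figure D5:**
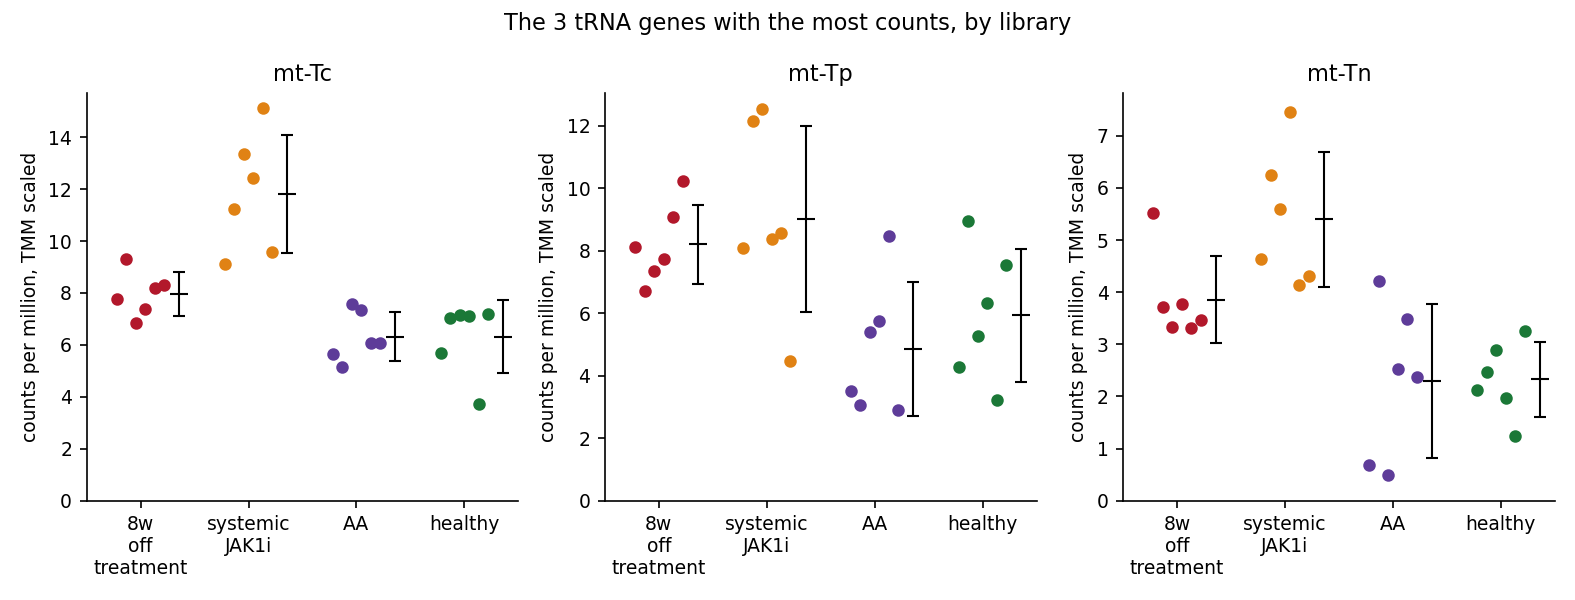
Level of mt-Tc, mt-Tp and mt-Tn in CPM in each library, by group, with bars for the mean ± SD of 6. For mt-Tc the systemic JAK1i points (9.13 to 15.1 CPM) lie above all AA (5.16 to 7.59) and healthy (3.72 to 7.20) points, and for mt-Tp all groups overlap.

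All 3 tested tRNAs were higher in systemic JAK1i than in AA. The log2 fold change was 0.91 for mt-Tc (SE 0.15, adjusted p = 5.29e-05), 1.27 for mt-Tn (SE 0.33, adjusted p = 0.00272) and 0.91 for mt-Tp (SE 0.27, adjusted p = 0.0081). These calls held when any 1 library was left out. Against healthy skin, edgeR called 1 of 18 members higher in systemic JAK1i and 0 lower, where 1.05% of all genes were called (0.511% higher, 0.535% lower). It was mt-Tc (0.89, SE 0.15, adjusted p = 0.00867), and it held without any 1 library but not without healthy libraries A and E (0.73, adjusted p = 0.0537). mt-Tn was at 1.19 (SE 0.32, adjusted p = 0.0625) and passed without healthy library F (adjusted p = 0.0323), and mt-Tp was at 0.60 (SE 0.26, adjusted p = 0.24). The libraries did not overlap for 2 of the 18, mt-Tc and mt-Tn, against 2.56% of all genes.

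No mRNA passed in systemic JAK1i against healthy skin. The smallest adjusted p among them were those of mt-Nd5 (0.34, SE 0.14, adjusted p = 0.21) and mt-Nd6 (0.40, SE 0.18, adjusted p = 0.25), with 0.12 for mt-Co1 and -0.15 for mt-Co3 (SE 1.12).

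Off treatment, mt-Tc was lower than in systemic JAK1i. It fell by 0.57 on the log2 scale (SE 0.15, adjusted p = 0.0049), while mt-Tn was at -0.51 (SE 0.31, adjusted p = 0.20) and mt-Tp at -0.14 (adjusted p = 0.72). Against AA the values in 8w off treatment were 0.34 for mt-Tc (adjusted p = 0.25), 0.76 for mt-Tn (adjusted p = 0.24) and 0.77 for mt-Tp (adjusted p = 0.14). In 8w off treatment against healthy skin mt-Tn was at 0.68 (SE 0.34, adjusted p = 0.12), mt-Tc at 0.33 (adjusted p = 0.12) and mt-Tp at 0.46 (adjusted p = 0.20). mt-Tn was the only member of 18 with libraries that did not overlap there, against 8.97% of all genes. In AA against healthy skin the 3 tRNAs lay between -0.31 and -0.02.

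Markers of several other cell types moved in the same comparison as the tRNAs, systemic JAK1i against AA, where 22.9% of all genes were higher and 24.8% lower. All 8 white adipocyte genes were higher in systemic JAK1i than in AA, at 0.0998% to 0.184% of counts in systemic JAK1i and 0.0214% to 0.104% in AA. All 10 hair matrix and shaft genes were lower, at 0.000854% to 0.0104% in systemic JAK1i and 0.0951% to 0.433% in AA. Of 7 sebocyte genes 6 were higher, at 0.325% to 0.550% of counts in systemic JAK1i and 0.0772% to 0.357% in AA. Of 9 T cell genes 8 were lower, at 0.00246% to 0.00466% in systemic JAK1i and 0.00376% to 0.0156% in AA. Of 7 fibroblast genes 3 were higher. The muscle genes had 3 of 15 higher, which is below the share of all genes, at 1.76% to 2.22% of counts in systemic JAK1i and 0.690% to 1.91% in AA. Their median log2 fold change was 1.10, against -0.01 for all genes. None of these genes was at 0 in either group, and the part of such shifts in cell make-up in the tRNA, mt-Cytb and mt-Nd2 differences was not tested.

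In TPM some directions differed, and the make-up of the TPM total differed between libraries. Genes of the miRNA biotype took 26.7% to 62.7% of TPM in 8w off treatment, 12.4% to 20.3% in systemic JAK1i, 22.3% to 64.6% in AA and 20.3% to 32.4% in healthy skin. By share of TPM the rRNAs were lower in 8w off treatment than in systemic JAK1i, at a mean of 0.807% in 8w off treatment and 1.12% in systemic JAK1i, the opposite of the counts, and the fitted log2 fold changes turned to -0.05 for mt-Rnr1 and -0.57 for mt-Rnr2. The median log2 fold change of all genes was itself shifted to -1.16 in that comparison, -0.80 in 8w off treatment against healthy skin, -0.51 in 8w off treatment against AA, 0.65 in systemic JAK1i against AA, 0.34 in systemic JAK1i against healthy skin and -0.29 in AA against healthy skin. Read against that shift the rRNAs lay above the median of all genes.

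Set against the TPM of protein-coding genes, the order of group means in the counts returned for the rRNAs but not for the other classes. The rRNAs had 4.75% to 9.27% of protein-coding TPM in 8w off treatment, 3.45% to 4.57% in systemic JAK1i, 2.55% to 3.79% in AA and 1.98% to 6.48% in healthy skin, with 8w off treatment again above systemic JAK1i and AA. The mRNAs had 4.60% to 6.47% in 8w off treatment, 5.42% to 6.32% in systemic JAK1i, 3.45% to 4.43% in AA and 3.06% to 6.27% in healthy skin. Here both groups that had received the inhibitor lay above all AA libraries, and the mean was lower in 8w off treatment (5.34%) than in systemic JAK1i (6.02%), where the counts had the mean of 8w off treatment higher. The tRNAs had 5.44% to 6.87% in 8w off treatment, 8.39% to 9.84% in systemic JAK1i, 4.84% to 6.46% in AA and 3.22% to 8.61% in healthy skin, with systemic JAK1i above 8w off treatment and AA. They overlapped healthy skin, unlike in the counts, and the tRNA mean of 8w off treatment (6.42%) was under that of healthy skin (6.83%), where in the counts it was above.

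A fit of median-centred TPM, also chosen after the data were seen, called 12 members higher in systemic JAK1i than in AA and 0 lower, against 5 in the counts. In the counts 47.7% of all genes were called there. The share of all genes called by the median-centred fit is not given here, so its 12 calls have no background. The tRNA levels of the 2 tables did not rest on the same genes. mt-Ts1, a serine tRNA with 122 counts over all libraries, had a median TPM of 5166 in 8w off treatment, 18723 in systemic JAK1i, 8647 in AA and 12165 in healthy skin, so the TPM of the tRNA class cannot be read as that of mt-Tc, mt-Tp and mt-Tn.

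Nuclear partners of the mitochondrial RNAs were counted from lists chosen by function. Of 76 nuclear subunits of complexes I, III, IV and V, 29 were higher and 1 lower in systemic JAK1i than in AA. Of all genes 47.7% were called there (22.9% higher, 24.8% lower). The median log2 fold change of the 76 was 0.23, against -0.01 for all genes. Complex I gave 16 higher of 36, among them Ndufs4 (0.54, adjusted p = 0.000275) and Ndufb11 (0.60, adjusted p = 0.00114). Complex IV gave 5 of 14 higher, among them Cox7a1, an isoform of muscle and brown fat (1.89, adjusted p = 0.00436), and 1 lower, Cox6a1 (-0.50, adjusted p = 0.0019). Atp5b and Atp5a1 of complex V, the subunits with the highest mean CPM, were at -0.02 and 0.06. Of the 4 subunits of complex II, which has no mitochondrial gene, 2 were higher, Sdha (0.44) and Sdhb (0.44).

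Of the 76 subunits 15 were higher and 2 lower in 8w off treatment against healthy skin, where 32.7% of all genes were called (16.9% higher, 15.7% lower). Cox5a of complex IV was higher by 0.71 on the log2 scale (adjusted p = 0.00236) and Ndufv3 of complex I lower, at -0.35 (adjusted p = 0.0106). In AA against healthy skin 1 was higher and 4 lower, where 40.2% of all genes were called (20.9% higher, 19.3% lower). In systemic JAK1i against healthy skin 3 were higher and 0 lower, where 1.05% of all genes were called (0.511% higher, 0.535% lower). There the median log2 fold change of the 76 was 0.25, against -0.01 for all genes. At an unadjusted p below 0.05 there were 39 of the 76, but the share of all genes at that threshold is not given here. By edgeR 0 passed in 8w off treatment against AA, where 1.37% of all genes did. At an unadjusted p below 0.05 there were 14 subunits, again without the share of all genes at that threshold. In 8w off treatment against systemic JAK1i 0 were higher and 3 lower, where 35.9% of all genes were called (19.4% higher, 16.6% lower).

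Mitochondrial ribosomal proteins, the partners of the rRNAs, showed no common direction. Of 76 tested, 9 were higher and 8 lower in systemic JAK1i against AA, where 47.7% of all genes were called, 8 and 2 in 8w off treatment against healthy skin (32.7% of all genes), and 4 and 3 in 8w off treatment against systemic JAK1i (35.9%). In AA against healthy skin 9 were higher and 4 lower (40.2% of all genes). In these 4 comparisons the share called was below that of all genes. Between 8w off treatment and AA 0 were higher and 1 lower in 8w off treatment (1.37% of all genes), and in systemic JAK1i against healthy skin 1 was higher and 0 lower (1.05%). Their median log2 fold change in 8w off treatment against systemic JAK1i, where both rRNAs were higher, was 0.00.

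Few genes that make and process mitochondrial RNA passed in 8w off treatment against systemic JAK1i. Of 30 processing and decay factors 5 were higher and 1 lower, and of 15 genes for transcription and DNA upkeep 2 were higher and 1 lower, where 35.9% of all genes were called. In systemic JAK1i against AA, where 47.7% of all genes were called (22.9% higher, 24.8% lower), the processing list had 2 higher and 8 lower, with Hsd17b10, a subunit of the RNase P that trims tRNA ends, higher by 0.57 (adjusted p = 0.000185) and Tbrg4, an RNA-binding protein of the FASTK family, at -0.66 (adjusted p = 5.36e-05). Polrmt, the mitochondrial RNA polymerase, was at -0.35 (adjusted p = 0.00172) and Tfam, which packages the mitochondrial genome and helps start its transcription, at 0.22 (adjusted p = 0.0814). Of 19 aminoacyl-tRNA synthetases, which load tRNAs, 3 were higher and 5 lower in that comparison. Of 8 regulators of mitochondrial biogenesis 0 were higher and 4 lower, among them Pprc1 (-0.83, adjusted p = 3.47e-05) and Esrra (-0.50, adjusted p = 0.00258).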

How the data were processed

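RNA sequencing of 24 mouse skin libraries, 6 per group, was used. The authors' deposited counts are whole reads per gene. Per the study's methods and the submitters' processing notes they were made with bcl2fastq, HISAT2 2.0.1 on mm10 (GRCm38) and featureCounts 1.4.4, from TruSeq Stranded Total RNA libraries with RiboGold depletion, although a description label speaks of PolyA RNA. The authors also deposited TPM per gene, scaled to gene length and to the same total in each library, and the tool is not given in the sources used here. Nor do those sources state which annotation was counted, whether strand was used, or what was done with reads that align to more than 1 place. Each table held 6 columns that match no sample, which were not used.

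Gene names, positions and sequences were taken from GENCODE M21. Copies of mitochondrial genes were sought with blastn 2.17.0 among its transcripts, at 95% identity or more over at least 100 bases. Shares are counts of a class over all counts of a library, with Wilson intervals at 95% that cover counting error only. A filter on low values (filterByExpr, minimum count 10) left 16248 genes, which were scaled by TMM and fitted in 1 design of the 4 groups with edgeR 4.0.16 (glmQLFit, glmQLFTest) in R 4.3.3, and 6 comparisons were adjusted by Benjamini-Hochberg over all of them, with calls at an adjusted p below 0.05. The labels do not say that libraries are separate animals, apart from the study's account of 6 mice per group, so p-values measure the spread between these libraries. Within groups, library pairs differed by more than sampling noise (chi-square per degree of freedom 3.23 to 60.9). The steps were tested on simulated counts.

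The members and the gene lists were chosen with earlier results of these data known. Per-library values are given for both rRNAs, mt-Nd6, mt-Co1, mt-Cytb, mt-Atp8 and the 3 tRNAs with the highest mean CPM, and for each comparison the mRNAs and tRNAs named are the 2 of each class that rank first by adjusted p and the 2 that rank first by mean CPM, and members of a nuclear list were named by the same rule. Other genes of the mt-Co2 to mt-Nd4l run, mt-Ts1, and those called only without some libraries were named after their values were seen. Alternatives were RLE and upper-quartile scaling, scaling from non-mitochondrial genes, no filter and a filter of 20 counts in 6 libraries, DESeq2 1.42.0, limma-voom with quality weights (limma 3.58.1), limma on log2(TPM + 0.1) or log2(TPM + 1) and without a filter, a replicate block by letter, fitting the 2 compared groups alone, leaving out each library, and leaving out healthy or 8w off treatment libraries A and E. Median-centred TPM and leaving out the 5 libraries low in the run were added after the data were seen. Genes at 0 TPM in every library, mt-Nd4l among them, did not enter the TPM fits.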

Additional observations from a re-analysis of the deposited data

Results flagged for a closer look

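Of 64 sets of 6 libraries examined, 3 held a library far from the rest of its group, and chance gives about 1 in 20. Healthy library B had an mt-Rnr1 level of 4443 CPM, against 1287 to 4443 CPM over all healthy libraries. The same library had the lowest TPM ratio of the mt-Co2 to mt-Nd4l run to the 5 genes outside the copied stretch, 3.45. 8w off treatment library A had 5.51 CPM of mt-Tn, above the other libraries of its group.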

How the results depend on the processing

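Counts of called members moved most with the TPM table. Where no total over all genes stands beside them, the counts of this section have no background. With log2(TPM + 0.1), log2(TPM + 1) and TPM without a filter, 2, 3 and 2 members were called in systemic JAK1i against healthy skin, 17, 17 and 22 in systemic JAK1i against AA, 0, 0 and 0 in 8w off treatment against AA, and 16, 16 and 23, all lower, in 8w off treatment against systemic JAK1i. Without a filter 7 were called in 8w off treatment against healthy skin. Directions turned in 8w off treatment against healthy skin for mt-Nd5 (-0.28), mt-Nd6 (-0.15) and mt-Co1 (-0.65), and in 8w off treatment against systemic JAK1i for mt-Rnr1 (-0.048), mt-Rnr2 (-0.57), mt-Nd5 (-1.0 and, with a pseudocount of 1, -0.99), mt-Nd4 (-1.15), mt-Co1 (-1.23) and mt-Co3 (-1.44). In that comparison log2(TPM + 0.1) called 14192 of 16213 genes, 254 of them higher, where edgeR on counts called 5841 with 3144 higher, and the shift of all genes in TPM is given with the results. Median-centred TPM gave 2 calls in systemic JAK1i against healthy skin and 12 in systemic JAK1i against AA. From the counts, DESeq2 gave 2 calls in systemic JAK1i against healthy skin and 4 in 8w off treatment against AA, limma-voom 3 in systemic JAK1i against healthy skin, a fit of 2 groups 2, 8 and 0 in systemic JAK1i against healthy skin, systemic JAK1i against AA and 8w off treatment against AA, and no filter 5 in 8w off treatment against systemic JAK1i. Without healthy libraries A and E there were 4 calls in AA against healthy skin, 0 in systemic JAK1i against healthy skin and 2 in 8w off treatment against healthy skin. Without 8w off treatment libraries A and E there were 2 against healthy skin and 0 against AA, and without the 5 low libraries 1 in 8w off treatment against AA. Leaving out 1 library gave 0 to 1 calls in AA against healthy skin, 1 to 2 in systemic JAK1i against healthy skin, 4 to 5 in 8w off treatment against healthy skin, 3 to 5 in systemic JAK1i against AA, 0 to 3 in 8w off treatment against AA and 2 to 3 in 8w off treatment against systemic JAK1i. As a share of protein-coding counts the tRNA difference of 8w off treatment from AA was 0.000853 points, and the other 275 recomputed share differences moved by less than the spread between libraries. Over all genes, the calls ranged with the tool in the comparisons with few: in systemic JAK1i against healthy skin edgeR called 170, DESeq2 634 and limma-voom 1978, and in 8w off treatment against AA edgeR called 222, DESeq2 635 and a fit of 2 groups 18. Whether libraries of the same replicate letter share a mouse is not known. Correlations of deviations between libraries of the same letter ran from -0.28 to 0.56, and no comparison had all 6 above 0.1. In 8w off treatment against systemic JAK1i, the 2 groups from the same mice, they ran from -0.22 to 0.51. Libraries of different letters were not compared, so these values do not settle it. The main fit took no account of shared mice. With the letter as a replicate block 3 members were called in systemic JAK1i against AA and 1 in 8w off treatment against AA, with 0, 1, 4 and 3 in AA against healthy skin, systemic JAK1i against healthy skin, 8w off treatment against healthy skin and 8w off treatment against systemic JAK1i. Unless a value above shows it, the cause of a change was not tested. Depth limits the 19 untested tRNAs most, and the levels of the 6 mRNAs of the mt-Co2 to mt-Nd4l run are uncertain because the 2 tables differ.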

Other observations

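Genes outside the mitochondrial genome were ranked by how closely their log2 CPM followed the summed mitochondrial mRNA or tRNA over the 24 libraries. Closest to the mRNA sum were Ttc39a (Pearson r = 0.77), Gm15774 (0.74), Vamp2, a membrane fusion protein (0.74), Sobp (0.73) and Akap1, an anchor protein of the outer mitochondrial membrane (0.72). Closest to the tRNA sum were Mzt1, a component of the microtubule-nucleating complex (0.80), Agbl1 (0.80), Usp28, a deubiquitinase (0.80), 2700046G09Rik (0.79) and Etfa, which passes electrons from mitochondrial fatty acid oxidation to the respiratory chain (0.79). The 24 libraries share 4 groups and their scaling, and the mRNA sum includes the 6 genes whose counts were lost in 5 libraries, so these values only describe the ranking.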
